A study of Danio rerio with 7 samples.

Results

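The subject is the expression landscape of wild-type (WT) zebrafish (Danio rerio) heads at 5 days post fertilization (dpf), read from the 3 WT bulk RNA-seq libraries among the 7 samples of the series. They are named WT 66, WT 67 and WT 68 after the numbers in their labels. Each holds pooled heads of genotype WT at 5 dpf with the cell type given as mixed, and the design text calls the WT larvae siblings of mutants of a line named leaky. The labels name no strain, transgene or treatment, and give neither the number of heads per pool nor the place of the cut. Nothing in them says that the 3 pools came from separate clutches, so SDs and p-values measure the spread between these 3 samples, which may be technical. The other 4 samples, 3 of hm41 mutant heads and a single-cell library, were not used, and no genotypes were compared.

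At this age a zebrafish larva swims, hunts by sight and feeds. Its head holds a brain with working circuits, cone-rich eyes with a lens of tightly packed crystallin proteins, cartilage of the jaw and gill arches, fast muscle that moves the jaw and eyes, and a skin of a surface and a basal layer. Zebrafish descend from an ancestor whose genome doubled once more than that of mammals, and many genes therefore exist as a pair of copies whose symbols end in a and b.

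The members are the gene rows left after the 8 rows with the highest mean count were removed. The libraries held 114604280, 35073549 and 74806206 counts in WT 66, 67 and 68, of which the 8 rows took 95.7%, 95.3% and 93.6%. LOC110438439 took 64.0%, 62.1% and 52.5% of the counts and zgc:158463, a ribosomal RNA in the RefSeq table of GRCz12tu, took 22.7%, 24.8% and 24.6%. The other 6 removed rows were LOC101884617, LOC101885394, LOC110438492, LOC110439627, LOC110439625 and LOC110439626. LOC110438492 was counted in one pool, with 6.87% of all counts in WT 68 and 6.34 and 1.03 counts in WT 66 and WT 67. The removed row of lowest mean, LOC110439626, averaged 206266 counts, and krt4, the first row kept, averaged 52809 counts. This left 4959770, 1664899 and 4775759 counts for 30413 of 30421 rows, and levels are given below in counts per 1000000 of these (CPM), in the order WT 66, 67 and 68, with mean ± SD over n = 3. In the shallowest library, WT 67, 1 CPM stood for 1.66 counts. A longer transcript gives more reads, and no transcript lengths were given, so CPM and shares of CPM say how reads were divided among genes and not how many transcripts each gene had. In pooled tissue, fewer cells of a type and less RNA per cell cannot be told apart.

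Of the 30413 kept rows, 20657 reached 1 CPM in every library, and 3335 had no count in any. Reaching 1 CPM therefore does not by itself set a group described below apart. The median level of the 20657 rows was 17.0 CPM. The division of reads was uneven: 13 rows held 10% of the kept counts, 138 rows held 25%, 1228 rows held 50% and 9550 rows held 90%. Counted in each library alone, 50% was held by 1256, 1248 and 1123 rows in WT 66, 67 and 68. Only 62 rows averaged 1000 CPM or more and 1788 averaged 100 CPM or more.

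Skin, muscle, protein synthesis and a few non-coding or unnamed rows made up the top of the ranking. The top row was krt4, a keratin of the surface skin, at 13715, 14581 and 13846 CPM. It was followed by the unnamed row LOC110440091 at 14688, 13771 and 11156 CPM and by rn7sk, the 7SK small nuclear RNA that restrains transcription elongation, at 11175, 10324 and 9499 CPM. The giant spring protein titin took the fifth and the sixth place, with ttn.1 at 7260.3, 5543 and 9639.7 CPM and ttn.2 at 6704, 5200.2 and 9232 CPM. WT 68 was highest and WT 67 lowest for both titin rows, an order that none of the 4 rows above them had. The share of all rows with this order was not counted. The translation factors eef1a1l1, which brings tRNAs to the ribosome, and eef2b, which moves the ribosome along, averaged 6067 ± 998 and 5447 ± 542 CPM. Fast myosin heavy chain myhz1.1 averaged 5732 ± 1937 CPM, and COX1 and COX2, subunits of cytochrome c oxidase encoded in mitochondrial DNA, averaged 5234 ± 520.2 and 3393 ± 678 CPM. The remaining places of the first 20 went to the keratins cyt1, cyt1l and krt5, the lipoprotein scaffold apobb.1, the cartilage collagen col2a1a, the ribosomal stalk protein rplp1 and the unnamed rows LOC103910888, LOC110438638, LOC110439371 and LOC110438040. Rows of genes that the RefSeq table lists as protein-coding held 88.9% ± 1.48 of the kept counts and filled 89 of the first 100 places, and long non-coding rows held 1.51% ± 0.241. The 5964 rows without an entry held 8.44% ± 1.19. Rows of microRNA genes were close to empty, with 0.000237% ± 5.53e-05 of the counts over 330 rows, of which 313 had no count.

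**Figure D1:**
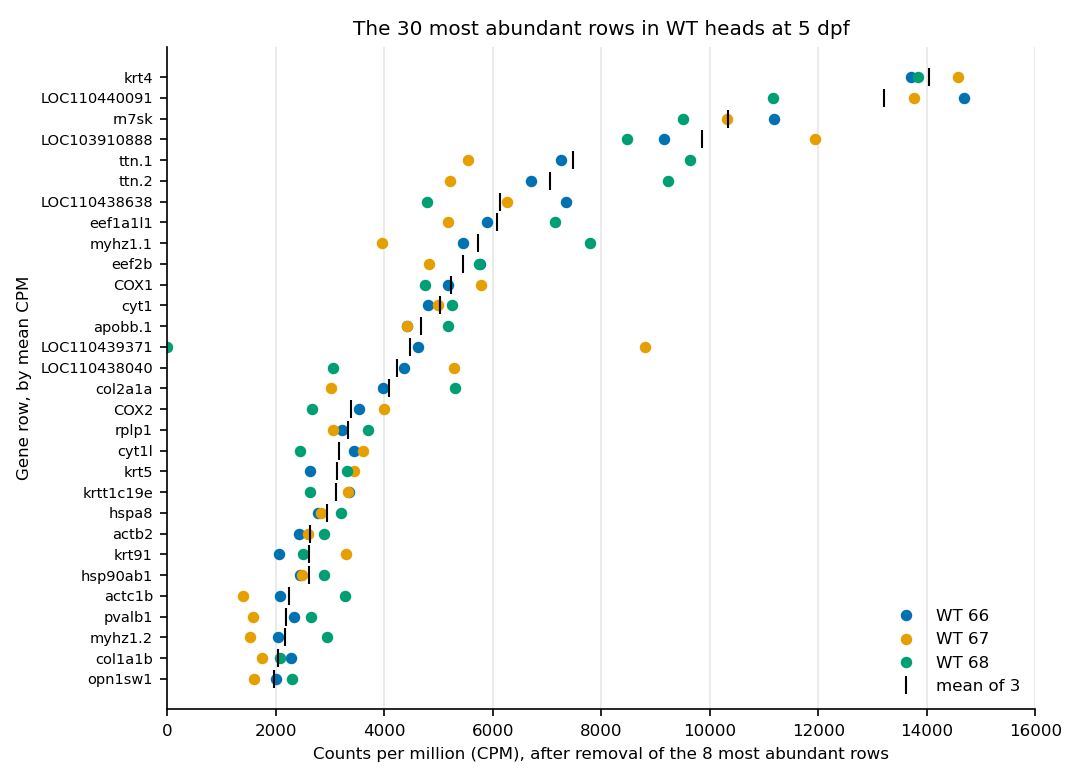
The 30 rows with the highest mean level. The horizontal axis gives CPM on a linear scale, each coloured point is 1 of the 3 WT libraries and the black tick is their mean. The points of krt4 lie close together, those of ttn.1, ttn.2 and myhz1.1 spread with WT 68 highest, and LOC110439371 is at 0 in WT 68.

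To divide the landscape by tissue, 64 lists of marker and machinery genes were summed; 1580 rows matched, and together they held 26.8% of the kept counts. A list's share depends on how many genes were put in it and on their length, so the lists are compared between pools rather than ranked as amounts of tissue. The fast skeletal muscle list held 3.91%, 2.96% and 5.39% in WT 66, 67 and 68 (4.09% ± 1.23), and all 52 of its rows reached a mean of 1 CPM. Titin alone gave 35.5% of it (18.3% from ttn.1 and 17.2% from ttn.2), followed by myhz1.1 with 14% and the muscle actin actc1b with 5.50%. With 20 rows removed in place of 8, which takes out both titin rows and myhz1.1, the share of the list was 2.28%. The parvalbumins, which bind calcium and speed relaxation in fast fibres, came to 0.427% ± 0.138 of the counts. Slow muscle genes stood at 0.101%, 0.0802% and 0.124%, led by the slow myosins smyhc2 and smyhc1 at 210.2, 169 and 327 CPM and 238, 195 and 256 CPM. The heart list, at 0.743% ± 0.206, was 94.8% ttn.2, a row that the fast muscle list also holds, and with 20 rows removed the heart share was 0.0427%. The ventricular myosin vmhc had 104, 112 and 141 CPM.

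The surface epidermis list held 3.29%, 3.56% and 3.36% and the basal epidermis list 1.12%, 1.34% and 1.19%, a 1.08-fold and a 1.2-fold range between pools. With krt4 and other leading rows among 20 rows removed, the surface epidermis share was 1.65%. In the basal epidermis list krt5 had 2629, 3433 and 3314 CPM, krtt1c19e 3338, 3327 and 2632 CPM and krt91 2065, 3283 and 2500.1 CPM, and the scaffold protein ahnak 1209, 1342 and 1377 CPM. These reads come from whole heads and were not assigned to a layer. The lists overlap, since krt5 and krtt1c19e stand in both. Ionocytes, the skin cells that take up salts, were seen through atp1a1a.4, a sodium pump subunit, at 465, 715 and 597 CPM, and ca2, a carbonic anhydrase, at 219, 228 and 224 CPM. The mucin muc5.1 of mucus cells had 239.8, 189.8 and 315 CPM. The melanophore list held 0.0917% ± 0.00854, with pmela, the fibril protein of melanosomes, at 239, 224 and 279.5 CPM and tyrp1b, a melanin enzyme, at 181, 148 and 193 CPM. The iridophore and xanthophore lists were smaller, at 0.0390% ± 0.00521 and 0.0330% ± 0.00236.

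In the eye, cone genes had more reads than rod genes in every pool. The cone list held 0.564%, 0.488% and 0.691% and the rod list 0.0943%, 0.0862% and 0.0951%. Much of the rod list was gnb1b, a G protein subunit at 298 ± 6.61 CPM that is also used outside rods. The ultraviolet cone opsin opn1sw1 stood at 1992, 1592 and 2299.5 CPM, the red opn1lw2 at 696, 509 and 943 CPM, the blue opn1sw2 at 306, 274 and 366 CPM and the green opn1mw1 at 269, 216 and 311 CPM. WT 67 was lowest and WT 68 highest for each of these 4 cone opsins. Of all rows at 10 CPM or more, 36.4% were lowest in WT 67 and 30% highest in WT 68. The share of rows holding both places was not counted. Rod opsin rho had 123, 96.1 and 139.9 CPM. In shares of opsin reads, opn1sw1 took 57.6%, opn1lw2 21.0%, opn1sw2 9.26%, opn1mw1 7.78% and rho 3.51%. The red opsin opn1lw1 and the green opsins opn1mw3 and opn1mw4 had no count in any WT library; no count in 11400428 summed kept counts allows a level of up to 0.263 CPM, taking a floor of 3 counts over the 3 libraries. These opsins are near copies of their counted relatives, and reads that fit several copies were shared out by the authors' estimation, so the split within the red and within the green opsins is uncertain. The cone transducin gnat2, which passes the light signal on, had 485, 456 and 669.8 CPM and the phosphodiesterase pde6c 255, 204 and 313 CPM. In the pigment epithelium, which renews the visual pigment, the isomerase rpe65a had 168, 170.0 and 295 CPM. Among genes of the other retinal neurons, cabp5a, a calcium-binding protein of bipolar cells, was foremost at 228, 277 and 139.6 CPM.

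General neuronal genes held 0.706%, 0.636% and 0.697%, and 47 of 48 rows had a mean of at least 1 CPM. The pump subunit atp1a3a, the vesicle protein sypa, the membrane fusion protein snap25a and the tubulin-binding stmn1b led them, with means of 565 ± 57.9, 463 ± 53.5, 383 ± 74.7 and 383 ± 17.2 CPM. The GABA and glycine neuron list was led by slc6a9, a glycine transporter that is not limited to neurons, at 389, 308 and 314 CPM. Inhibitory transmission showed in the GABA-making enzymes gad2 and gad1b at 199.7, 195 and 164 CPM and 164, 118 and 135 CPM. Excitatory transmission was led by the NMDA receptor subunits grin1b at 325, 327 and 233 CPM and grin1a at 211, 186 and 153 CPM. All 35 glutamate receptor rows and all 26 GABA and glycine receptor rows had a mean of at least 1 CPM. The monoamine and acetylcholine list held 0.0363% ± 0.00463, led by the serotonin and dopamine synthesis enzyme ddc at 107, 90.1 and 57.4 CPM and by the serotonin transporter slc6a4a at 80.7, 65.5 and 65.1 CPM. The hypothalamic peptides summed to 0.0292% ± 0.000805, and their first row was adcyap1b, which encodes the peptide PACAP, at 62.3, 84.7 and 76.6 CPM. The pituitary list was at the bottom of all 64 at 0.00107% ± 9.04e-05. The row cga gave 58.0% of this list's reads. The precursor pomca had 2.82, 1.802 and 3.77 CPM and the growth hormone row gh1 1.61, 0 and 1.05 CPM. In WT 66, 67 and 68, 1 CPM stood for 4.96, 1.66 and 4.78 counts. The rows smtlb, tshba and fshb, which encode other hormones of the gland, were at 0.

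Radial glia, the main glia of the fish brain, held 0.327%, 0.281% and 0.351%, led by the glutamine synthetase glula at 572, 578 and 638 CPM, the glutamate transporter slc1a2b at 657, 393 and 634 CPM and the pump subunit atp1a1b at 377, 287 and 460.4 CPM. Genes of dividing and newborn cells held 0.357% ± 0.0297. The chromatin protein hmga1a was foremost among them at 1012, 783 and 962 CPM, then tubb2b at 403, 323 and 369.6 CPM, and the neurogenic factors sox11a and sox4a followed at 263, 268 and 285 CPM and 272, 264 and 276 CPM. Myelin genes were read too, and the oligodendrocyte and Schwann cell list held 0.0833% ± 0.00467, with pmp22b at 132, 117 and 120.3 CPM, mbpb at 101, 117 and 99.3 CPM and mbpa at 77.0, 109.9 and 115 CPM. Brain region factors were low, and their list shares ranged 1.15-fold, 1.09-fold and 1.17-fold between pools for the forebrain, midbrain and hindbrain. In the forebrain list lhx9 led at 87.1, 79.3 and 72.2 CPM and foxg1b followed at 68.3, 54.7 and 59.7 CPM, in the midbrain list meis2a led at 237, 238 and 199.97 CPM, and in the hindbrain list zic1 led at 93.6, 106 and 82.7 CPM. In the ear, stm, the starmaker protein that shapes the ear stones, had 151, 139 and 205 CPM. The 248 odorant and taste receptor rows summed to 0.0127% ± 0.00329, 15 of them at a mean of 1 CPM or more and 129 without a count, led by or115-14 at 35.97, 59.3 and 24.4 CPM.

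Collagens led the skeletal and connective tissue lists. The cartilage list held 0.840%, 0.677% and 1.08%, of which col2a1a, the main collagen of cartilage, gave 47.3% and stood at 3971, 3008 and 5301 CPM. The fibrous collagens col1a1b, col1a1a and col1a2 led the meninges and fibroblast list (0.979% ± 0.0791) at 2029.8 ± 261, 1909 ± 224 and 1280.2 ± 98.0 CPM. The bone list was far smaller at 0.0266% ± 0.00611, and 50.7% of it was col10a1a, a collagen of maturing cartilage and of bone cells, at 128, 100.3 and 177 CPM. The endothelial list held 0.0850%, 0.0869% and 0.0854%, led by the amino acid transporter slc7a5 at 143, 152 and 148 CPM and by mfsd2ab, a relative of a lipid transporter of brain vessels in mice, at 121, 121 and 75.2 CPM. Red cell genes held 0.0592%, 0.0427% and 0.0589%, and the row si:ch211-250g4.3 gave 46.1% of the list. The globin rows, at 0.0185%, 0.0110% and 0.0170%, were led by hbbe1.1 at 65.1, 26.7 and 62.8 CPM, hbbe2 at 29.4, 30.03 and 36.9 CPM and hbae3 at 32.7, 12.6 and 39.2 CPM. The adult globin rows ba1, ba1l, hbaa1, hbaa2 and hbba2 and the embryonic hbbe3 were at 0. In the microglia and macrophage list (0.0567% ± 0.00736) the lipid carrier apoeb gave 39.4% at 217, 210.2 and 244 CPM. The protease lgmn followed at 110.3, 87.1 and 162 CPM; neither gene is limited to microglia. The lymphocyte and thymus list was low at 0.00911% ± 0.00107, and the row tox gave 51.5% of it. The antigen receptor recombinase rag1 had 3.23, 5.41 and 4.40 CPM.

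The tissue label was checked with genes of position and of organs behind the head. Hox genes mark position along the body from the hindbrain backward. Those of groups 1 to 4 summed to 171, 159 and 135 CPM in WT 66, 67 and 68 and made 63.5% of all hox reads. Those of groups 5 to 8 made 30.1%. Those of groups 9 to 13, which mark the hind trunk and tail, summed to 17.2, 19.2 and 9.89 CPM over 23 rows. Of these rows 5 had a mean of at least 1 CPM, and 5 others, hoxb13a, hoxc10a, hoxc12a, hoxc13a and hoxd9a, had no count. The germ cell list was at 0.00109% ± 0.000124. Of its 14 rows 2 had a mean of at least 1 CPM, and sycp1 gave 41.4% of its reads. Its rows nanos3, dnd1, zp2.1, zp3 and sycp3 were at 0. The trunk, tail and notochord list held 0.0388%, 0.0324% and 0.0403%, with 11 of 31 rows at a mean of 1 CPM or more. The collagen col9a2 gave 85.1% of it, so the share mostly follows this row and does not by itself show trunk tissue. Of the 31 rows, 5 had no count. Genes on the lists of front trunk organs were counted all the same. The liver list held 1.05%, 1.02% and 1.13%, and apobb.1, which the yolk layer also makes, gave 43.7% of it. The liver fatty acid carrier fabp10a had 136, 172 and 113 CPM. The exocrine pancreas list held 0.228%, 0.251% and 0.222%, led by zgc:92041 at 307, 461 and 393 CPM and prss59.2, a trypsin-family protease, at 343, 349 and 325 CPM. The intestine list held 0.434%, 0.452% and 0.465%, led by the chitinase chia.2 at 556, 1144 and 950.4 CPM and by apoa1a, the core protein of high-density lipoprotein, at 1171, 540.0 and 807 CPM. In the kidney list the uptake receptor lrp2a led at 231, 179.6 and 249 CPM. Whether such reads came from organs left with the heads or from other cells that read these genes was not tested.

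The machinery of protein synthesis and energy supply was read deeply in every pool. The 82 rows of cytosolic ribosomal proteins held 3.52%, 3.35% and 3.86% (3.57% ± 0.261), every one of them had a mean of at least 1 CPM, and 15 were among the first 100 rows. The stalk protein rplp1 had 9.30% of this family's reads and rpl8 4.29%. The 13 protein-coding rows of the mitochondrial genome held 1.68%, 1.93% and 1.42%, and WT 68 was lowest for all 13 of them, as it was for 38.3% of the 13546 rows with a mean of at least 10 CPM. COX1 gave 31.2% of these reads, COX2 20.2% and COX3 11%. The carrier slc25a5, which exchanges ADP for ATP, led the nuclear respiratory list at 1188, 1094 and 1534 CPM, and atp5a1 and atp5b, which form the head of ATP synthase, followed at 750.2 ± 158 and 657 ± 144 CPM. Glycolysis was led by gapdh at 701, 800.0 and 635 CPM and ldhba at 386, 405 and 552 CPM. The circadian clock list held 0.456%, 0.484% and 0.467%. Its first rows were per1b, a repressor of the clock loop, at 500.4, 494 and 509.7 CPM and nr1d2b, a nuclear receptor of the same loop, at 492, 431 and 454 CPM. The hour of sampling is not given in the sources used here.

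Several families were carried by few members. In the elongation factor family eef1a1l1 took 46.9% and eef2b 42.1% of the reads, and in the heat shock family hspa8 took 45.1% and hsp90ab1 40.0%, both being chaperones that unstressed cells make. The parvalbumins were mainly pvalb1 with 51.2% and pvalb2 with 38.5%. The myosin heavy chains were led by myhz1.1 with 52.6% and myhz1.2 with 19.9%, and the light chains by mylpfa with 55.8% and mylz3 with 22.3%. Keratin reads were 41.4% krt4, 14.8% cyt1, 9.31% cyt1l and 9.20% krt5. Actin reads were divided between the cytoplasmic actb2 (39.4%) and actb1 (19.0%) and the muscle actc1b (33.6%). Among the apolipoproteins apobb.1 had 47.2% and apoa1b 19.1%. The creatine kinases, which buffer ATP, were led by ckmb with 41.3% and ckma with 25%. The collagens were more divided, with 22.5% in col2a1a over 57 rows that all reached a mean of 1 CPM. Of tubulin reads tubb2b had 20.8% and tubb4b 17.9%. Of crystallin reads crygm2d10 had 8.91% and crygm2d2 7.47%. The 4 leading members held 62.7% of tubulin, 51.2% of collagen and 28.2% of crystallin reads. They held less in larger families: the protocadherins (26.8%, 65 rows), the ribosomal proteins (21.8%, 82 rows), the solute carriers (16.8%, 401 rows) and the zinc finger genes with znf symbols (13.9%, 166 rows). The share of 4 members depends on family size, and the tubulins have 19 rows. The histone rows, led by the linker histones histh1l with 33.0% and h1f0 with 25.7%, summed to 0.330%, 0.328% and 0.326%. The sum was flatter than its rows. Of the 17 histone rows at 10 CPM or more 13 were lowest in WT 67, against 36.4% of all rows at that level. Reads of near-identical copies, as in the crygm2d, myhz1, hbbe and cyt1 groups, may be divided wrongly by estimation, so the sums of these groups are firmer than the split within them.

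**Figure D2:**
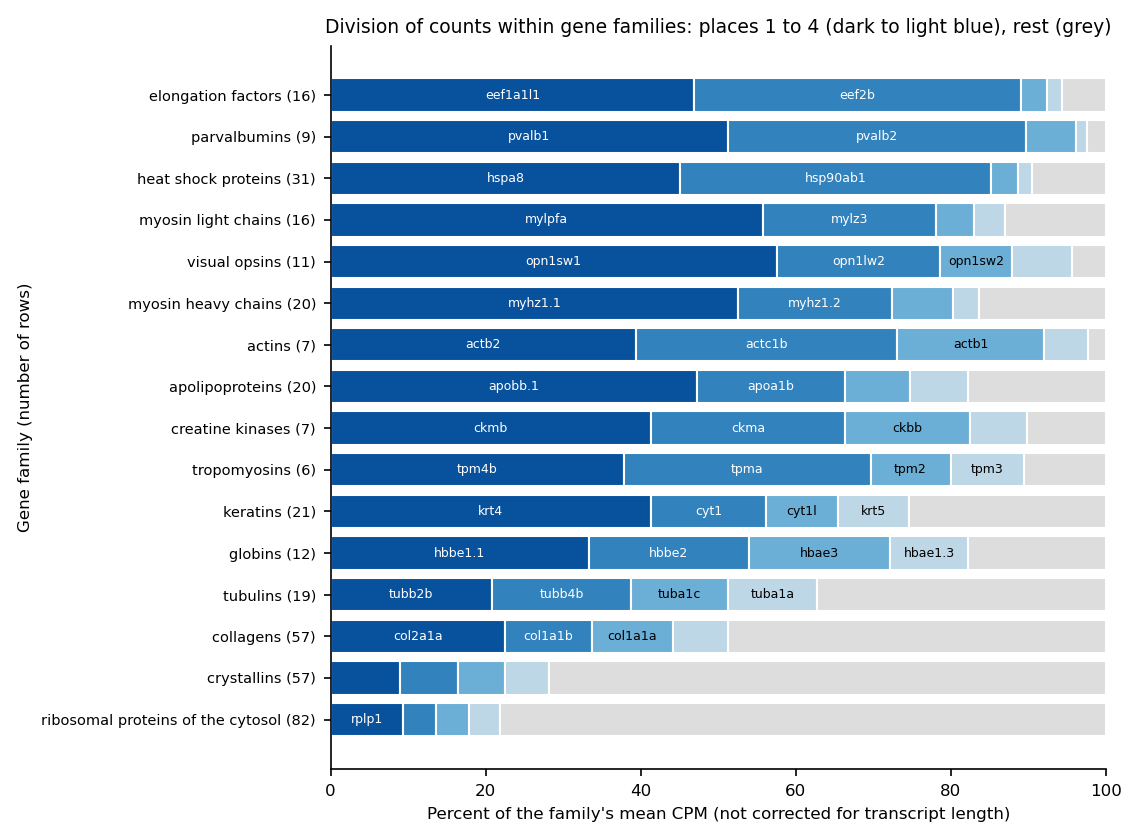
Division of reads within 16 gene families. Each bar adds up to 100% of the family's mean CPM, not corrected for transcript length; the blue shades are the 4 members with the most reads, from dark to light, and grey is the rest, with the number of rows in brackets. The 4 leading members hold 97.5% of parvalbumin reads, a family of 9 rows, and 21.8% of cytosolic ribosomal protein reads, a family of 82 rows.

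For gene pairs whose symbols differ by a final a or b, the a and b members were compared within each library. There were 2633 such pairs with at least 60 summed counts. Of these, 1013 pairs, or 38.5%, had a ratio of counts past 2-fold (limma's treat test against a 2-fold ratio, two-sided, adjusted p under 0.05 by Benjamini-Hochberg over all pairs). The a member was the higher one in 590 pairs (22.4%) and the b member in 423 pairs (16.1%). The estimate lay within 2-fold for 1104 pairs, or 41.9%. The median share of the higher member was 70.6%, and the median SD of the log2 ratio between the 3 pools was 0.39. At a 10-fold threshold, chosen after seeing that no lengths were given, 189 pairs were called, 120 with a higher and 69 with b higher. A ratio of counts mixes the ratio of transcripts with the ratio of their lengths, and some symbols that end in a and b are not genome duplicates.

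Among the called pairs with the most reads, several were nearly single-gene in the head. Ratios are log2 values of a over b, as mean ± SD over the 3 pools. Muscle actin actc1a had 35.8, 21.12 and 34.7 CPM, against actc1b with 2079, 1386 and 3280.1 CPM, a log2 ratio of -6.14 ± 0.37, adjusted p = 1.72e-07. The muscle light chain mylpfa had 1238, 1159 and 1349 CPM, against mylpfb with 21.0, 19.2 and 52.1 CPM (5.49 ± 0.69, adjusted p = 8.15e-07). For the RNA-binding hdlbpa the level was 1863, 2076 and 1848 CPM, against hdlbpb with 66.7, 62.5 and 66.2 CPM (4.88 ± 0.14, adjusted p = 1.72e-07). One copy of each of these 3 pairs was far below the other in every pool. The glutamate dehydrogenase glud1a had 30.8, 27.0 and 39.4 CPM, against glud1b with 877, 740.0 and 915 CPM (-4.71 ± 0.15, adjusted p = 1.72e-07). Tropomyosin tpm4a had 43.8, 25.8 and 58.0 CPM, against tpm4b with 832, 1055 and 607 CPM (-4.32 ± 0.98, adjusted p = 1.70e-05). In none of these 5 pairs did the ranges of the members overlap, which follows from ratios this large in pairs already called. Of all 2633 pairs, 1212 had a ratio over 2-fold in every library. Cartilage collagen col2a1a had 3971, 3008 and 5301 CPM, against col2a1b with 419.6, 389 and 463 CPM (3.24 ± 0.28, adjusted p = 4.42e-06). Milder ratios past the threshold were those of the cold-inducible RNA-binding cirbpa and cirbpb (-1.47 ± 0.26, adjusted p = 0.0189), the cartilage collagens col11a1a and col11a1b (1.55 ± 0.08, adjusted p = 0.00402), the RNA helicases eif4a1a and eif4a1b (-1.62 ± 0.22, adjusted p = 0.00370) and the RNA-binding khdrbs1a and khdrbs1b (1.72 ± 0.07, adjusted p = 0.000890).

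Other abundant pairs were shared out between both copies. The type I collagen chains col1a1a and col1a1b had means of 1909 ± 224 and 2029.8 ± 261 CPM, a log2 ratio of -0.09 ± 0.08. The endocytic receptors lrp1aa and lrp1ab had means of 518 ± 40.0 and 541 ± 48.0 CPM (-0.06 ± 0.05), and the clock receptors nr1d2a and nr1d2b 346 ± 47.4 and 459 ± 31.1 CPM (-0.42 ± 0.27). The creatine kinases ckma and ckmb had means of 518 ± 146 and 854 ± 317 CPM (-0.69 ± 0.13) and the ribosomal proteins rpl5a and rpl5b 934 ± 209 and 508 ± 64.3 CPM (0.86 ± 0.40). None of these 5 was called past 2-fold. At the other end, 53 called pairs had a member with no count in any pool. In the one with the most reads, ptmaa, a small acidic nuclear protein, had 483, 484 and 469 CPM and ptmab was at 0, so that ptmaa was at least 1813-fold higher, taking a floor of 3 counts over the 3 libraries. The next were thbs1b, a thrombospondin, with 295, 301 and 369 CPM while thbs1a was at 0 (at least 1241-fold higher), and eif4g1a, a scaffold of translation initiation, with 301, 271 and 304 CPM while eif4g1b was at 0 (at least 1133-fold higher). Such bounds hold for counting error alone, because reads that carry no molecular identifier are not separate molecules. A row at 0 may also have lost its reads to another row in the authors' estimation, which was not tested. The bounds therefore compare the counts of rows and do not show that a gene was silent.

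**Figure D3:**
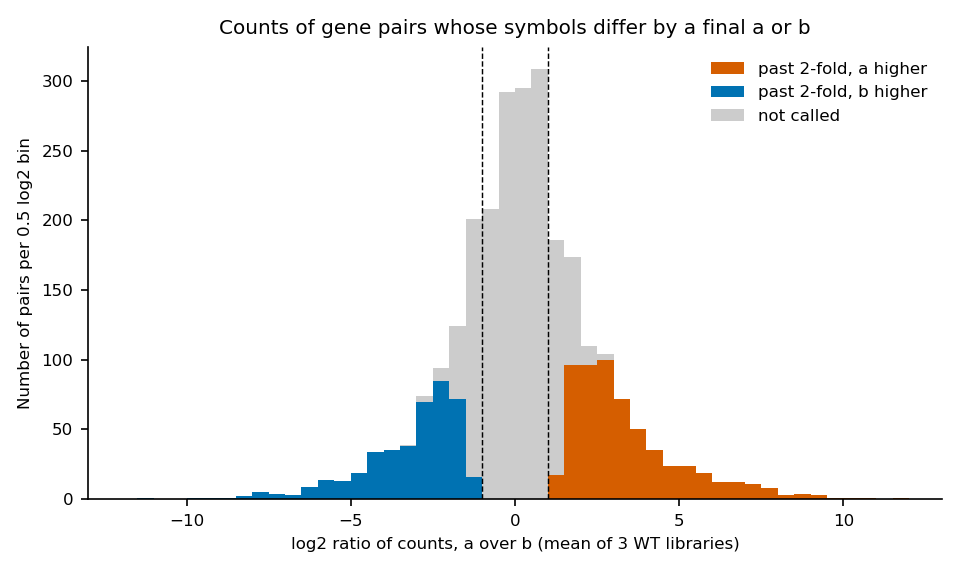
Ratios of counts in 2633 gene pairs. The horizontal axis is the mean log2 ratio of the a member over the b member in the 3 WT libraries, the vertical axis counts pairs in bins of 0.5, and dashed lines mark 2-fold. Orange pairs (590) were called with a higher, blue pairs (423) with b higher, and grey pairs were not called.

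Most genes differed little between the 3 pools. Over 16193 rows with at least 10 counts in each pool, the log2 CPM of the libraries correlated across genes, which are not independent replicates, with Pearson's r of 0.940 for WT 66 and 67, 0.954 for WT 66 and 68 and 0.928 for WT 67 and 68. Spearman's rho was 0.931, 0.952 and 0.915. The variation beyond counting error that edgeR estimated over 16234 rows was 19.9%. Among the 4178 rows with a mean of at least 50 CPM the median coefficient of variation was 12.8%, against 6.13% for counting alone, and 166 rows (3.97%) had a highest library over 2-fold above the lowest. Of the 64 lists, 36 had a highest share less than 1.2 times the lowest, and 6 had more than 1.5 times. The endothelial share ranged 1.02-fold and the surface epidermis 1.08-fold. A flat sum does not show that its rows were flat, and slc7a5 alone gave 17.2% of the endothelial list.

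The lens stood out from this. The crystallins, which fill the lens fibres and refract light, held 0.280%, 0.833% and 1.396% of the reads in WT 66, 67 and 68, a 4.98-fold range. Of the 33 crystallin rows at 10 CPM or more, all 33 were lowest in WT 66 and highest in WT 68, an order shown by 11% of all rows at that level (1487 of 13546), and 32 of the 33 had over a 2-fold range, as had 11.1% of all rows at that level. The ratio of WT 68 over WT 66 had a median of 5.53 and ran between 1.95 and 8.69. The foremost row, crygm2d10, had 227, 751 and 1257 CPM, crygm2d2 had 426, 616 and 833 CPM and crybb1l2 had 129, 574 and 819 CPM. The gamma M2d crystallins, a fish group of small gamma proteins, made 73.8% of crystallin reads, and the beta crystallins made 22.7%. The gamma M2d share was 78.2%, 72.5% and 73.6% in WT 66, 67 and 68, so the makeup changed less than the total. Among 8 lens genes other than crystallins at 10 CPM or more, all 8 had over a 2-fold range and 5 had the same order. The lens cytoskeleton gene bfsp2 had 18.8, 59.5 and 117 CPM and the water channel mipa 16.5, 54.7 and 81.7 CPM. These 2, and capn3a below, were chosen after their values were seen. Without WT 68 the crystallin share was 0.557%, against 0.836% over all 3 pools.

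Of the 10 rows with the highest coefficient of variation at 50 CPM or more, 8 were crystallins: crygm2d6, crygm2d3, crygm2d19, crygm2d14, crygn2, cryba1b, cryba4 and crygmxl2. The other two were unnamed rows that did not follow the lens. LOC110439372 had 30.1, 0 and 551 CPM and LOC110439371 had 4610.2, 8808 and 0 CPM, and each was at 0 in one pool in which the other was counted. The protease capn3a, not on the lens list, had 14.5, 78.1 and 88.6 CPM and shared the order of the crystallins.

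A second tendency, toward WT 67 lowest and WT 68 highest, was spread over many groups. Each place was counted on its own, and rows holding both places were not counted. Of the 64 lists, 36 had their lowest share in WT 67 and 34 their highest in WT 68, while of the 13546 rows at 10 CPM or more 36.4% were lowest in WT 67 and 30% highest in WT 68. Over all rows at that level the tendency was absent. There WT 67, the shallowest library, was also most often highest, at 37.6%, and WT 68 most often lowest, at 38.3%. Of 48 fast muscle rows at that level, 42 were lowest in WT 67 and 40 were highest in WT 68, and the fast muscle share ranged 1.82-fold. The muscle families were uneven in this. Ranges between pools were 1.94-fold for the parvalbumins, 1.83-fold for the troponins, 1.81-fold for the myosin heavy chains, 1.76-fold for the creatine kinases, 1.42-fold for the actins, 1.24-fold for the myosin light chains and 1.2-fold for the tropomyosins. The actin and tropomyosin families also hold genes used outside muscle, and the tropomyosin share was lowest in WT 66, with 0.204%, 0.209% and 0.245%. All 7 parvalbumin rows at 10 CPM or more were lowest in WT 67. Of 23 cartilage rows 17 were lowest in WT 67 and 19 highest in WT 68, and their share ranged 1.59-fold. Some of the machinery that every cell uses had many rows in each of these places too. In the proteasome list, whose genes break down tagged proteins, 28 of 34 rows were lowest in WT 67 and 24 highest in WT 68. The nuclear respiratory chain had 36 of 51 rows lowest in WT 67 and 35 highest in WT 68. For the cytosolic ribosomal proteins these counts were 47 and 45 of 81, and for the heat shock proteins 14 and 13 of 19. Other machinery followed in part or not at all. Of 21 vacuolar proton pump rows 15 were lowest in WT 67, but 11 were highest in WT 66 and 8 in WT 68. Of 22 translation elongation rows 10 were lowest in WT 66 and 10 in WT 67, with 15 highest in WT 68. All 13 mitochondrial genome rows were lowest in WT 68.

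Neuronal groups did not share one order. Of 45 general neuronal rows 26 were lowest in WT 67 and 18 highest in WT 68. Of 13 rows of GABA and glycine neurons 9 were lowest in WT 67 and 10 highest in WT 66. WT 66 was highest for 32.3% of all rows at 10 CPM or more. Other groups were more often lowest in WT 68, which held for 38.3% of all rows. Of 30 glutamate receptor rows 22 were lowest in WT 68 and 1 was highest there, with shares of 0.219%, 0.219% and 0.164%. Of 45 potassium channel rows 30 were lowest in WT 68, and of 64 protocadherins, the adhesion proteins of neurons, 40 were. The same place was held by 56 of 98 znf rows and by 590 of 1021 unnamed LOC rows, groups that are not defined by neurons. WT 67 was the shallowest pool and WT 68 carried LOC110438492 at 6.87% of its counts; the part of depth, of this row and of the makeup of the pools in these orders was not tested.

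**Figure D4:**
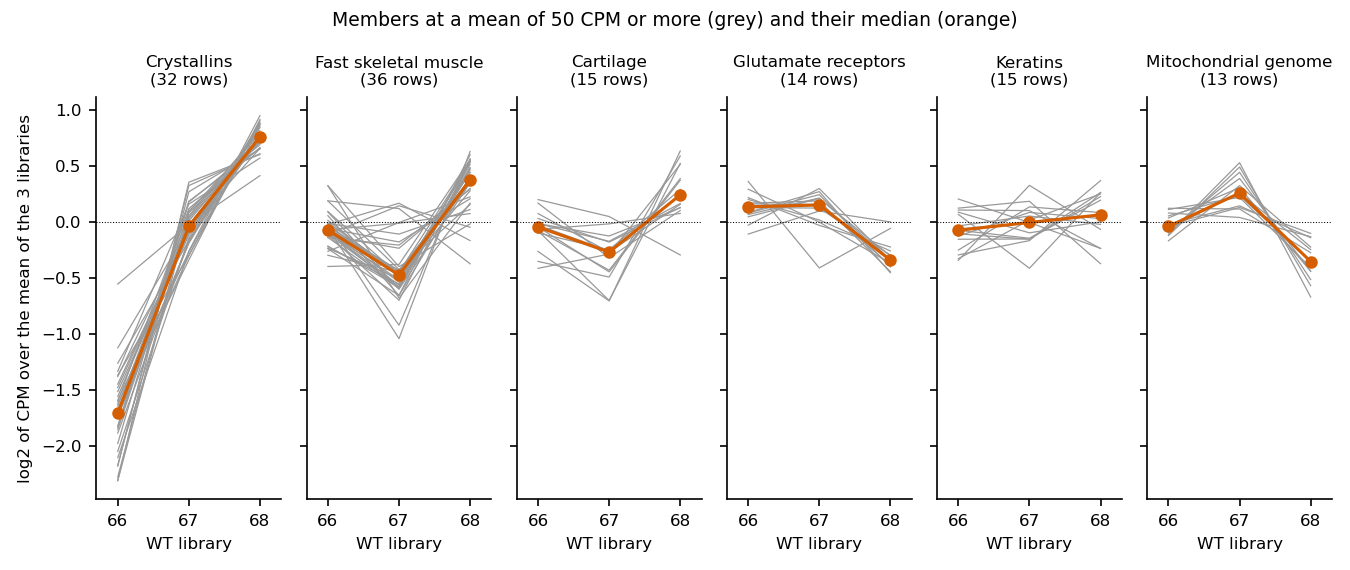
Deviation of single genes between the 3 WT pools in 6 groups. The vertical axis is the log2 of a gene's CPM over its mean of the 3 libraries, each grey line is 1 row with a mean of at least 50 CPM, and the orange line is the median. All 32 crystallin rows are lowest in WT 66 and highest in WT 68, the medians of fast muscle and cartilage dip in WT 67, and those of glutamate receptors and mitochondrial genes are lowest in WT 68.

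The spock genes, which encode secreted proteoglycans of the matrix and include the gene in the title of the series, were all read in WT heads. The level of spock1 was 51.2, 36.6 and 34.8 CPM (40.9 ± 9.01), that of spock2 172, 132 and 182 CPM (162 ± 26.9) and that of spock3 118, 99.1 and 104 CPM (107 ± 9.69). In every pool spock2 had the most reads and spock1 the fewest, and the ranges of the 3 genes did not overlap. Their places in the ranking were 5157 for spock1, 898 for spock2 and 1626 for spock3.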

How the data were processed

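Bulk RNA-seq of pooled heads was measured in 6 libraries, of which the 3 WT libraries were used. Total RNA was column-purified and made into strand-directional libraries, per the labels' protocols. The authors deposited a table of 30421 rows of expected counts, which are estimates of reads per gene before any scaling. TopHat, Bowtie2, RSEM and the genome build GRCz11 come without versions or roles, per the submitters' processing notes. The annotation release and the strandedness of counting were not given in the sources used here. Of the values, 23.2%, 18.2% and 22.3% were not exactly whole in WT 66, 67 and 68. The 3 hm41 columns of the table were not used.

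The 8 rows with the highest mean count in the WT libraries were removed and the rest scaled to 1000000 per library (CPM). Shares are summed CPM. Depth after removal was 1664899 to 4959770 counts, and 50 CPM stood for 248, 83.2 and 239 counts in WT 66, 67 and 68. Identifiers were matched to the RefSeq table of GRCz12tu for names and gene classes only (24451 rows), since that is not the authors' build. The 64 lists and 44 families (taken by symbol pattern) were chosen with earlier results of these data known. The patterns for odorant receptors and apolipoproteins were corrected, and an interleukin family was dropped, after their rows were seen.

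Pairs were tested with limma 3.58.1 (treat, trended variance, pseudocount of 0.5 counts, Benjamini-Hochberg threshold 0.05) in R 4.3.3 on log2 ratios of the expected counts as deposited, without rounding. The test had been planned on counts per coding length. No lengths were given, so it was run on counts. Dispersion was estimated with edgeR 4.0.16 over rows with at least 10 counts in every library, with counts rounded to whole numbers. Both steps were run on simulated data, with dispersion at or near the estimate from these libraries and no pair ratio set at the 2-fold threshold. Those runs give no error rate for the calls made here. There is one group, so nothing else was tested. Alternatives were 20 removed rows, trimmed mean (TMM) and DESeq2 1.42.0 scaling, low-count filters, another pseudocount, a 10-fold threshold for pairs and leaving out each library.

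Genes were named by rule: the 8 removed and the 20 foremost rows, up to 4 leading members of a list or family and those at 0 in lists used as a check, the 10 called and 5 uncalled pairs with the most reads, the 10 most variable rows at 50 CPM or more, and the spock genes. Pairs with a member at 0 and the genes marked so were chosen after their values were seen.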

Additional observations from a re-analysis of the deposited data

How the results depend on the processing

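Scaling by TMM or DESeq2 size factors and a filter of 10 summed counts per row moved no main share or count beyond the spread between pools. Removing 20 rows in place of 8, which takes krt4, ttn.1, ttn.2, myhz1.1 and other leading rows out of their lists, gave a share of 2.28% for fast skeletal muscle, against 4.09%, 1.65% for the keratins, against 3.40%, and 1.28% for the mitochondrial genome. It gave 0.0427% for the heart list, against 0.743%, 1.65% for the surface epidermis, against 3.40%, 0.535% for the translation elongation list, against 1.64%, 0.157% for the elongation factor family, against 1.29%, and 0.572% for the myosin heavy chains, against 1.09%. It gave, through the smaller total, 0.751% for general neuronal genes and 3.95% for ribosomal proteins. With 10-fold in place of 2-fold as the threshold, 189 pairs were called, against 1013; this threshold was chosen after seeing the data. With 2 counts as pseudocount 1016 pairs were called, and with pairs of 10 or more summed counts 1028. No call changed direction under these or without any one library, though a change would need an estimate past 2-fold in the opposite direction. The planned choice of counts with or without length could not be compared, since no lengths were given.

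The variation beyond counting error was 19.9%, and 23.6% with no low-count filter. Leaving out each library in turn gave 18.8% to 22.6% for it, the highest without WT 66. Leaving out each library gave 849 to 1059 called pairs, 21139 to 21463 rows at 1 CPM or more in each library left, and 1203 to 1263 rows holding 50% of the counts. The shares then ran between 3.44% and 4.65% for fast muscle, 1.55% and 1.81% for the mitochondrial genome, 3.43% and 3.69% for ribosomal proteins, 3.30% and 3.46% for the keratins, 1.71% and 1.95% for the collagens, 0.307% and 0.375% for the visual opsins and 0.666% and 0.701% for general neuronal genes. The crystallins ran between 0.557% without WT 68 and 1.11% without WT 66, and the lens fibre list was 0.574% without WT 68, against 0.862%. No paired analysis was possible because all library numbers in the labels differ and one group was described. The 3 pools and 1664899 counts in the shallowest limit what can be said of rows under about 50 CPM.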

Other observations

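Several other gene groups of the WT heads were read at moderate levels, given here as CPM in WT 66, 67 and 68. Immediate early genes, which cells switch on within minutes of a stimulus, held 0.0761%, 0.0853% and 0.0768% of the kept counts. Their first rows were fosl2 at 102, 139.9 and 116 CPM and the phosphatase dusp1 at 112, 124 and 99.7 CPM. Glucocorticoid response genes held 0.190%, 0.201% and 0.193%. The first row, per1b, gave 25.8% of this and also stands in the circadian clock list. Of the other rows, pck1, the enzyme that starts glucose synthesis, had 336, 399 and 304 CPM and tsc22d3 126, 115 and 167 CPM. The vacuolar proton pump, which acidifies lysosomes and synaptic vesicles, held 0.214%, 0.180% and 0.209%, led by atp6v0ca at 276, 228 and 199.97 CPM. The iron store fth1a had 399, 352 and 385 CPM and the lipid peroxide scavenger gpx4a 432, 333 and 341 CPM. Among secreted proteins of the brain, the matrix protein fstl1b led at 281, 277 and 304 CPM, then the protease inhibitor cst3 at 236, 267 and 232 CPM and epd, ependymin, at 216, 252 and 236 CPM.

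The sodium-potassium pump subunits held 0.423%, 0.384% and 0.439%, with atp1a1a.1 at 969, 839 and 988 CPM, and solute carriers held 1.59%, 1.54% and 1.61% over 401 rows, a 1.04-fold range. Neurofilament rows were low, with 0.00964% ± 0.00136 over 6 rows and inab foremost at 31.0, 25.8 and 36.6 CPM. The pineal list was 72.8% irbp, a retinoid carrier also made in the retina, at 212, 227 and 222 CPM, while exorh, the opsin of the pineal organ, had 17.9, 10.21 and 10.5 CPM. Thyroglobulin, the precursor of thyroid hormone, was read as tg at 26.8, 18.0 and 49.0 CPM, with WT 68 highest and WT 67 lowest. The thyroid and gill list that holds tg did not follow this order, with shares of 0.0299%, 0.0297% and 0.0283%. The row slc12a2 gave 72.6% of its reads, and of its 4 rows at 10 CPM or more 3 were lowest in WT 68.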
